A study of Drosophila melanogaster with 13 samples.

Results

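MSL2 peaks of adult *Drosophila melanogaster* males were compared between flies whose only functional MLE lacked the CLAMP binding domain (MLEΔCBD-FLAG) and flies with full-length MLE (MLEWT-FLAG). The members are the 92 peaks of the MLEΔCBD-FLAG list and the 222 peaks of the MLEWT-FLAG list, together 314 of the 6400 peaks in the 6 deposited lists. Peaks on all chromosomes were taken, and an overlap of 1 bp or more made a pair of peaks from the lists shared. A shared MLEWT-FLAG peak is called kept, an MLEWT-FLAG peak with no overlapping MLEΔCBD-FLAG peak is called lost, and an MLEΔCBD-FLAG peak with no overlapping MLEWT-FLAG peak is said to have no counterpart.

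The study profiled MSL1, MSL2 and MSL3 by ChIP-seq in the 2 lines, with 2 libraries for each protein and line and 1 preimmune serum library of the MLEWT-FLAG line. Chromatin came from pooled whole males of 2 to 3 days of age, so the values average over all tissues of the fly, and fewer cells with MSL2 at a site and less MSL2 per cell cannot be told apart. All males were y1w1118 and homozygous for the null allele mle9, and carried a FLAG-tagged mle transgene, driven by the ubiquitous Ubi-p63E promoter, at the attP site ZH-86Fb on chromosome 3 (genotype labels MLEdel and MLEwt). The transgene was homozygous in MLEΔCBD-FLAG males, while in MLEWT-FLAG males it stood over TM6, a rearranged balancer of chromosome 3, so the deletion and the state of chromosome 3 cannot be told apart. Each line has 1 MSL2 list with no replicate columns, so no difference between the lines was tested for significance. Read counts are not part of the lists, so sequencing depth is unknown here, and a lost peak is one absent from a thresholded list, not a measured absence of MSL2.

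The male-specific lethal (MSL) complex binds the single X chromosome of males and raises its transcription. MSL2, the subunit made only in males, recognises GA-rich MSL recognition elements at high affinity sites together with the zinc finger protein CLAMP, and MSL1 is the scaffold on which MSL2 and MSL3 assemble. The helicase MLE unwinds the noncoding RNAs roX1 and roX2, which lets them join the complex, and MSL3 binds marked chromatin of active genes around the entry sites.

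The sites on which the comparison turns are GA-rich to different degrees. The sequences that follow were read from the release 6 (dm6) genome of RefSeq, 5′ to 3′, with the longest unbroken GA run of the stretch in capitals. The first set holds 50 bases either side of the MLEΔCBD-FLAG summit, which is the base of highest signal in a peak, at 4 of the strongest kept peaks. They lie in the roX1 exon (chrX:3861261-3861361, plus strand), in the roX2 exon (chrX:11580199-11580299, plus strand), in an intron of Nup153 (chrX:16608019-16608119, plus strand) and in an intron of Atg5, where CG1677 and lncRNA:CR44357 also lie (chrX:7320996-7321096, minus strand).
roX1: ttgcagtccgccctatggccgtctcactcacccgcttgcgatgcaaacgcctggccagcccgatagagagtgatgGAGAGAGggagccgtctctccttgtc
roX2: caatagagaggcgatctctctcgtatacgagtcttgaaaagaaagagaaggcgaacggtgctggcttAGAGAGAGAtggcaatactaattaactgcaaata
Nup153: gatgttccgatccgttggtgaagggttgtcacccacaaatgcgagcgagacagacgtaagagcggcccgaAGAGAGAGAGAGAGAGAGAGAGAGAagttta
Atg5: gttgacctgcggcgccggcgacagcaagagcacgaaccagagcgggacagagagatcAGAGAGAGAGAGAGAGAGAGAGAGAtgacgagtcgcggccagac

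The next set shows 30 bases around the GA run at untranslated sites, kept at CG9132 (chrX:16798362-16798391, plus strand) and CG2186 (chrX:10865758-10865787, minus strand) and lost at HERC2 (chrX:20411801-20411830, plus strand). It also shows the intronic summit of Rip11 (chrX:18636462-18636562, plus strand), the strongest lost peak outside an untranslated region. These are shown because runs of like length stood at kept and at lost peaks.
CG9132, kept: ggcagacAGAGAGAGAGAGAGAGtgaggga
CG2186, kept: tcagcGAGAGAGAGAGAGAGAGAGAtagtt
HERC2, lost: atcgagcGAGAGAGAGAGAGAGAcggcaag
Rip11, lost: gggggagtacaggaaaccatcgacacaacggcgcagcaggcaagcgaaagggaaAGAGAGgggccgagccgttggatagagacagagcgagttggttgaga

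The last set holds 50 bases either side of the summit at MLEΔCBD-FLAG peaks with no counterpart, a pair near the tip of the X chromosome (chrX:52624-52724, minus strand, and chrX:54334-54434, plus strand) and the strongest on chromosome 4 (chr4:1305924-1306024, plus strand). None of these stretches holds a run of 4 GA units, and neither does the roX1 stretch above. Such a run lay within 100 bp of 19 of 55 kept X summits of the MLEWT-FLAG list, so most kept summits lacked it too. As groups, 0 of 4 X and 0 of 23 autosomal summits with no counterpart had one within 100 bp.
X tip, left: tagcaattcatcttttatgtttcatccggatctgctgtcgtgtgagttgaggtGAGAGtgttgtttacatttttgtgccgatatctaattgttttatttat
X tip, right: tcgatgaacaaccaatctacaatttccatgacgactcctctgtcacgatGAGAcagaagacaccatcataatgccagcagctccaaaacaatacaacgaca
Chromosome 4: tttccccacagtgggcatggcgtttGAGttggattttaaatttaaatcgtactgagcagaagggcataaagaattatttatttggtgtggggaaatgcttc

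In MLEΔCBD-FLAG males, MSL2 peaks remained at roX1, roX2 and the other strongest X sites, and no X peak below rank 100 of the MLEWT-FLAG list was found. Of the 222 MLEWT-FLAG peaks, 57 were kept, or 25.7% (95% Wilson interval 20.4 to 31.8%). On the X chromosome 55 of 216 were kept, or 25.5% (interval 20.1 to 31.7%). No MLEWT-FLAG peak overlapped more than 1 peak of the other list. Among the X peaks at ranks 1 to 20 of the MLEWT-FLAG list by fold enrichment, 20 of 20 were kept. At ranks 21 to 50, 24 of 31 were kept, and at ranks 51 to 100, 11 of 50 were kept. Below rank 100, 0 X peaks were kept, and the Wilson interval allows a share of up to 3.23% there. The kept X peaks had a median rank of 29 (interval 20 to 38), against a median rank of 135 (interval 123 to 149) for the lost X peaks. With each list cut to its 92 strongest peaks, the kept share on the X was 57.6%. The other kept peaks, at ranks 219 and 222, lay on unplaced Y sequences, where the annotation was not used.

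**Figure D1:**
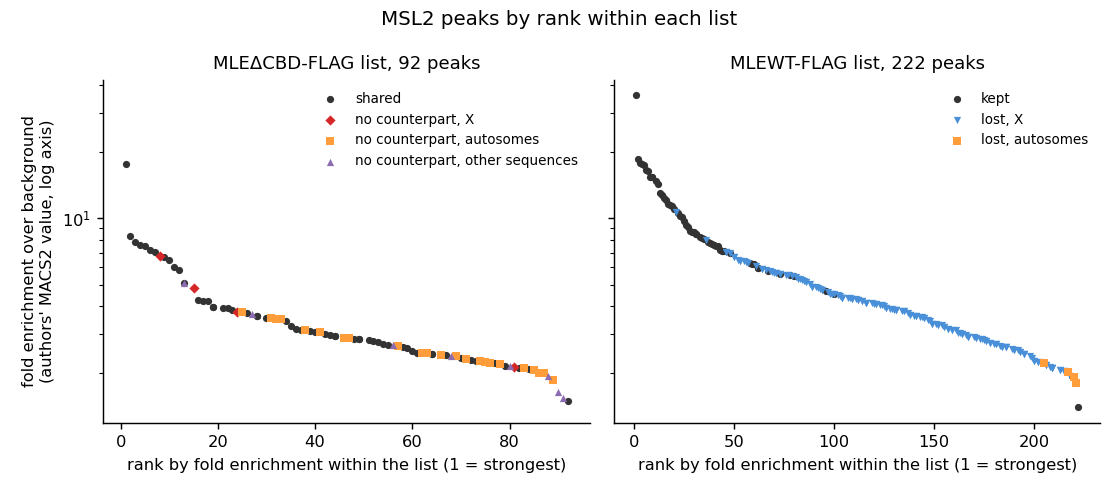
Rank by fold enrichment within the list (x axis) against fold enrichment over background, the authors' MACS2 value (y axis, log scale), for the MLEΔCBD-FLAG list on the left and the MLEWT-FLAG list on the right, with 1 point per peak. The 20 strongest MLEWT-FLAG peaks were all kept, and the lost X peaks begin at rank 21.

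The order of the kept peaks was largely shared. Over the 55 kept X pairs, Spearman's rank correlation between the fold enrichments of the MLEΔCBD-FLAG and MLEWT-FLAG lists was 0.91, a description across peaks that share libraries and the genome's mappability. Of the 10 strongest kept pairs of each list, 9 were the same. roX1, the gene of an RNA component of the complex, held rank 1 in both lists, with a fold enrichment of 17.7 in the MLEΔCBD-FLAG list and 36.1 in the MLEWT-FLAG list. roX2, the partner RNA gene, had rank 9 in MLEΔCBD-FLAG males and rank 4 in MLEWT-FLAG males. These sites stayed at the top of the list. The scale of fold enrichment depends on each line's libraries, so its differences between the lines were not tested.

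Among other strong kept peaks, Nup153, which encodes a nuclear pore protein, had rank 6 in the MLEΔCBD-FLAG list and rank 2 in the MLEWT-FLAG list. hep, the JNK kinase, had rank 11 against rank 3, and sno (strawberry notch), a nuclear protein of Notch signalling, had rank 2 against rank 5. Stt3A, a catalytic subunit of oligosaccharyltransferase, had rank 7 in both lists. The autophagy gene Atg5 had rank 5 against rank 9, and Socs16D, of the suppressor of cytokine signalling family, had rank 4 against rank 9. CG9132, with the run of 16 bases shown above, had rank 3 against rank 11. An intergenic peak with its MLEWT-FLAG summit at chrX:19641083, 1786 bp from the start of CG12237, had rank 10 against rank 6. CG4645 lay lower in the order, at rank 34 against rank 33.

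A few sites changed place more strongly. With ranks counted among the 55 kept X peaks alone, the median change was 5 places (interval 3 to 7) and the largest was 16 places. The largest fall was that of CG2186, at place 24 in MLEΔCBD-FLAG males and place 8 in MLEWT-FLAG males, although its run of 20 bases is among the longer ones. It was followed by ebo, of the exportin family, at place 38 against place 26. CrebB, a cAMP-responsive transcription factor, was at place 26 against 16, and Vav, a guanine nucleotide exchange factor, at place 46 against 36. The largest rises were those of the kinase gene Raf, at place 32 against 44, of the dopamine receptor gene Dop2R, at place 28 against 39, and of the Hedgehog co-receptor gene boi, at place 36 against 47. These folds are often tied within a list, so small changes of place carry no order.

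The strongest lost peaks were still sites of the other MSL proteins in MLEΔCBD-FLAG males. The highest-ranked lost peak, at rank 21, was that of HERC2, of the HERC ubiquitin ligase family, with a fold enrichment of 10.7 and a width of 2229 bp in the MLEWT-FLAG list. Next came Rip11, a Rab11 effector, at rank 36, then the small GTPase gene Rab35 and crm (cramped) at rank 46, and nocte, which acts in temperature entrainment of the clock, at rank 48. CG12773 and the Ajuba gene jub followed at rank 50, RhoGAP5A at rank 52, and the lipid kinase gene Pi4KIIIalpha and the phosphatase gene MKP-4 at rank 53. Peaks of MSL1 and of MSL3 in MLEΔCBD-FLAG males covered all 10 of these sites. At Rip11, the MSL1 peak held rank 61 of 577 and the MSL3 peak rank 274 of 2301 in the MLEΔCBD-FLAG lists.

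Over all 161 lost X peaks, 89 overlapped an MSL1 peak of MLEΔCBD-FLAG males, or 55.3% (interval 47.6 to 62.7%), against 133, or 82.6%, for MSL1 of MLEWT-FLAG males. For MSL3, 129 lost peaks, or 80.1% (interval 73.3 to 85.6%), overlapped a peak in MLEΔCBD-FLAG males, against 161 of 161 in MLEWT-FLAG males. MSL3 peaks are wide, and with summits required to lie within 250 bp the share in MLEΔCBD-FLAG males was 34.8%. With each list cut to its 92 strongest peaks, the share of lost X peaks with an MSL1 peak in MLEΔCBD-FLAG males was 92.3%. In MLEΔCBD-FLAG males both proteins had a peak at 85 of the lost sites, at 44 only MSL3, at 4 only MSL1 and at 28 neither, and 86 of the 89 sites with MSL1 also had an MSL1 peak in MLEWT-FLAG males. The lost peaks with an MSL1 peak in MLEΔCBD-FLAG males had a median fold enrichment of 4.37 in the MLEWT-FLAG MSL2 list (n = 89), against 2.88 for those without (n = 72). At the 55 kept X peaks, MSL1 was present in all 55 and MSL3 in 54 in MLEΔCBD-FLAG males, and both in all 55 in MLEWT-FLAG males.

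The kept peaks were narrower in MLEΔCBD-FLAG males. Their median width was 351 bp (interval 306 to 415 bp) in MLEΔCBD-FLAG males and 858 bp (interval 701 to 1082 bp) in MLEWT-FLAG males. The ratio of MLEΔCBD-FLAG to MLEWT-FLAG width had a median of 0.43 (interval 0.39 to 0.51, n = 55 pairs), ranged from 0.12 to 0.92 and was below 1 at 55 of 55 sites. At 54 sites the MLEΔCBD-FLAG peak lay wholly inside the MLEWT-FLAG peak. The edges moved in by a median of 182 bp on the left and 168 bp on the right.

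Each deposited row also holds the start, end and summit of the same peak in a second peak set, one of those the reproducibility procedure compared. The first set is the main peak of each row, and whether it is itself one of the compared sets is not stated. In the second set the median width was 348 bp in MLEΔCBD-FLAG males and 777 bp in MLEWT-FLAG males, with a median ratio of 0.46 (interval 0.43 to 0.48) and again 55 of 55 narrower. At 50 of the 55 sites the wider MLEΔCBD-FLAG set was narrower than both MLEWT-FLAG sets. Within a line, the second set was 0.96 times as wide as the first in MLEΔCBD-FLAG males and 0.91 times in MLEWT-FLAG males, as medians. Which libraries make up these sets is not stated, so this spread is not a replicate error.

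In the first peak set, the narrowest relative to MLEWT-FLAG males was the peak in the 3′ UTR of Ran, the GTPase of nuclear transport, with 187 bp in MLEΔCBD-FLAG males and 1625 bp in MLEWT-FLAG males. The intergenic peak near CG12237 measured 388 bp against 1960 bp, and the ebo peak 306 bp against 1490 bp. The least narrowed in that set were hiw, an E3 ligase of synaptic growth, with 845 bp against 914 bp, hep with 893 bp against 1048 bp, and Ppt1, a palmitoyl-protein thioesterase, with 583 bp against 717 bp. The order of these sites did not hold in the second set, where the width ratio was 0.48 at Ran, 0.55 at the peak near CG12237 and 0.56 at ebo, against 0.55 at hiw, 0.41 at hep and 0.50 at Ppt1. In the first set roX1 measured 581 bp against 817 bp, and roX2 363 bp against 1262 bp. The ratio was 0.47 (median, n = 28) at intronic sites and 0.42 (n = 16) at 3′ UTR sites, with overlapping intervals.

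Width also moves with enrichment in a called list. Fold enrichment was lower in MLEΔCBD-FLAG males at 55 of 55 kept X pairs, with medians of 3.12 and 8.71 and a median ratio of 0.39. Widths, like fold enrichments, depend on each line's libraries. Spearman's rank correlation between fold enrichment and width was 0.28 over the 59 X peaks of MLEΔCBD-FLAG males and 0.42 over the 216 of MLEWT-FLAG males, given as a description. At folds between 2.68 and 4.22, the median width was 359 bp for kept X peaks of the MLEΔCBD-FLAG list (n = 27). It was 679 bp for X peaks of the MLEWT-FLAG list in that range (n = 69). The latter were other sites, as every kept X peak had a fold of at least 4.52 in the MLEWT-FLAG list. The part of depth in these widths was not tested. Nor was the part of lower enrichment in the narrower widths and in the loss of lower-ranked peaks.

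MSL1 and MSL3 behaved differently from each other at the same 55 kept sites. MSL1 peaks there had a median width of 1602 bp in MLEΔCBD-FLAG males and 1692 bp in MLEWT-FLAG males, a median ratio of 0.97 (interval 0.92 to 1.02). MSL3 peaks had medians of 3983 bp and 7866 bp over the 54 sites with a peak in each line, a ratio of 0.51 (interval 0.45 to 0.63). The MSL1 ratio was above the MSL2 ratio of the same site at 54 of 55 sites, and the MSL3 ratio at 34 of 54. At lost X sites the MSL1 ratio was 0.86 (interval 0.78 to 0.89, n = 86) and the MSL3 ratio 0.34 (interval 0.29 to 0.39, n = 129). The MSL1 and MSL3 lists hold only peaks at an IDR of 0.01 or less, unlike the MSL2 lists. Lists of separate antibodies may also differ in depth, which is unknown here, so these are side-by-side values.

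**Figure D2:**
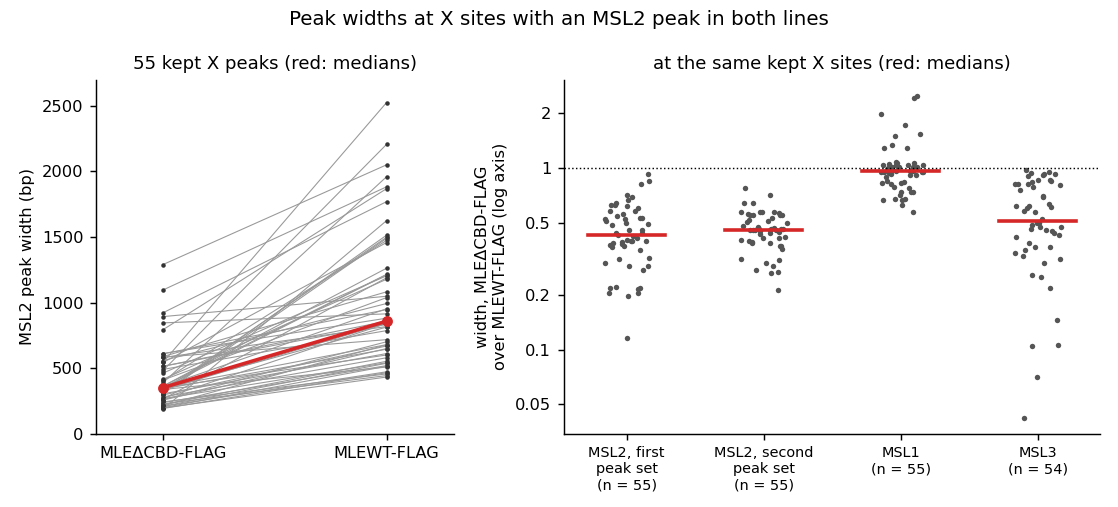
Left, width in bp of each of the 55 kept X peaks of MSL2 in MLEΔCBD-FLAG and MLEWT-FLAG males, joined by site. Right, width in MLEΔCBD-FLAG over width in MLEWT-FLAG males on a log axis at the same sites, with 1 point per site and red bars for medians, which are 0.43 and 0.46 for the MSL2 peak sets, 0.97 for MSL1 and 0.51 for MSL3.

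The summits hardly moved. At the 55 kept X peaks the median distance between the MLEΔCBD-FLAG and MLEWT-FLAG summits was 10 bp (interval 7 to 12 bp), and the largest was 70 bp. Between the second peak sets of the lines the median was 18 bp. The distance between the peak sets of a single line was of the same size, with a median of 18 bp (interval 10 to 23 bp, largest 85 bp) in MLEΔCBD-FLAG males and 15 bp (interval 9 to 18 bp, largest 38 bp) in MLEWT-FLAG males. The summit lay at a higher coordinate in MLEΔCBD-FLAG males at 25 sites, at a lower one at 28 and at the same base at 2, with a median signed shift of -1 bp. The distance between the lines exceeded the distances between the peak sets of both lines at 10 of 55 sites.

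At Nup153 and at the intergenic peak near CG12237 the summit was the same base in both lines. It differed by 8 bp at roX1, 3 bp at roX2, 8 bp at Stt3A and 11 bp at CG4645. The largest distance, 70 bp, was at mei-217, a meiotic gene related to the MCM proteins, where the peak sets of MLEΔCBD-FLAG males were themselves 85 bp apart. CG2186 followed with 38 bp, and dx (deltex), a Notch pathway ubiquitin ligase gene, with 35 bp, against 29 bp and 56 bp between the MLEΔCBD-FLAG sets. Summits of the lines were within 25 bp of each other at 48 of 55 sites and within 50 bp at 54.

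**Figure D3:**
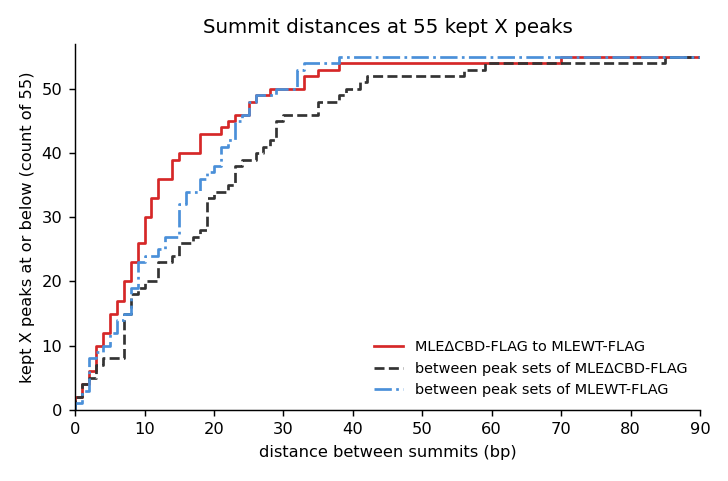
Cumulative count of the 55 kept X peaks (y axis) by distance between summits in bp (x axis), between the lines and between the peak sets within each line. The medians are 10 bp between lines, 18 bp within MLEΔCBD-FLAG and 15 bp within MLEWT-FLAG, and 48 of 55 sites lie within 25 bp between lines.

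Most kept and lost summits lay inside genes, 52 of 55 kept and 151 of 161 lost X summits, while 25.4% of the bases of the X are intergenic. Introns held 28 kept summits, or 50.9% (interval 38.1 to 63.6%), and 55 lost summits, or 34.2% (interval 27.3 to 41.8%), beside 46.7% of X bases. The 3′ UTR held 16 kept summits, or 29.1% (interval 18.8 to 42.1%), and 58 lost, or 36.0% (interval 29.0 to 43.7%), beside 6.35% of X bases. Coding sequence held 3 kept (5.45%) and 23 lost (14.3%) summits, beside 16.7% of X bases. The 5′ UTR held 2 kept (3.64%) and 12 lost (7.45%), beside 3.40% of X bases. The intervals of kept and lost peaks overlapped for each of these parts, and none of the differences was tested. Read the other way, 28 of 83 intronic X peaks were kept, 16 of 74 in 3′ UTRs, 3 of 26 in coding sequence and 2 of 14 in 5′ UTRs.

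**Figure D4:**
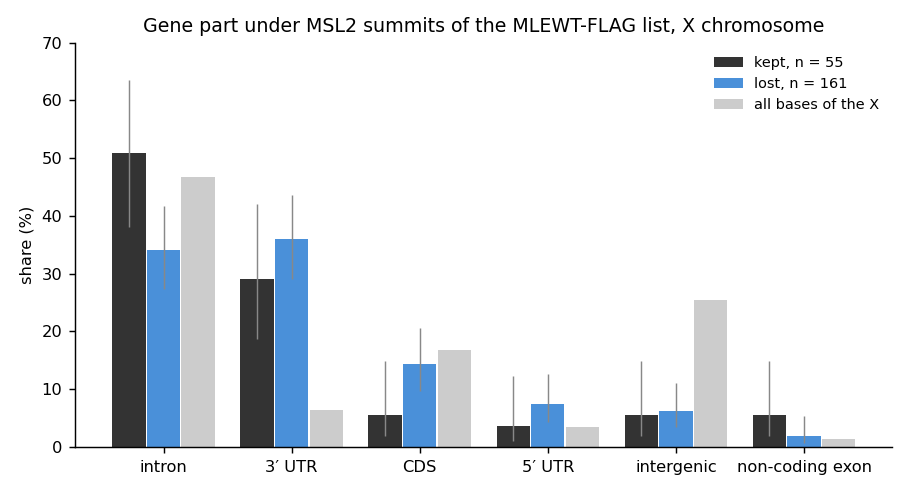
Share in percent of kept (n = 55) and lost (n = 161) X summits of the MLEWT-FLAG list in each part of a gene, with 95% Wilson intervals as bars, and the share of all X bases in that part. Introns hold 50.9% of kept and 34.2% of lost summits, and 3′ UTRs 29.1% and 36.0%.

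Promoters held few of either. A transcription start lay within 200 bp of 4 of 55 kept summits (7.27%) and of 14 of 161 lost summits (8.70%), beside 5.72% of X bases. The kept ones were at Gbeta13F, a G protein subunit gene ranked 18 in the MLEWT-FLAG list, CG15247, nej, which encodes the acetyltransferase CBP, and the start of Cyp4ae1. Within protein-coding genes, the median summit lay at 71.4% of the gene's length from its start among kept peaks (n = 49) and at 73.6% among lost peaks (n = 148). The last part of the gene, beyond 50% of its length, held 38 of 49 kept and 107 of 148 lost summits.

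The 216 X summits of MLEWT-FLAG males fell in 185 genes, 13 of which held more than 1 summit, while the 59 of MLEΔCBD-FLAG males fell in 53 genes with 1 summit each. In 4 genes a kept summit stood beside lost ones. In Nup153 the intronic peak at rank 2 was kept and one in the 5′ UTR at rank 213 was lost. In hep the intronic peak at rank 3 was kept and one in the 5′ UTR at rank 135 was lost. In dx the intronic peak at rank 73 was kept, and those in the 5′ UTR at rank 130 and in the 3′ UTR at rank 213 were lost. In nej the promoter-proximal peak at rank 62 was kept, and those in the coding sequence at rank 114 and in the 3′ UTR at rank 125 were lost. In all 4 genes the kept peak was the strongest of the gene in MLEWT-FLAG males. All 3 peaks were lost in each of nocte, Trf4-1 and Tomosyn, a gene of the secretory SNARE machinery.

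Spacing along the X chromosome widened with the loss of peaks. Neighbouring summits were a median of 295 kb apart in MLEΔCBD-FLAG males (interval 234 to 385 kb, n = 58 distances) and 71.4 kb apart in MLEWT-FLAG males (interval 56.1 to 81.0 kb, n = 215), a ratio of 4.13. With each list cut to its 92 strongest peaks the ratio was 1.74. The X carried 2.51 peaks per Mb in MLEΔCBD-FLAG males and 9.17 in MLEWT-FLAG males. Neighbours within 10 kb of each other made up 1 of 58 distances in MLEΔCBD-FLAG males, the pair at the X tip with no counterpart, and 24 of 215 in MLEWT-FLAG males. No kept peak lay within 10 kb of another kept peak, the closest pair being 12.7 kb apart.

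The kept peaks were spread over the chromosome. Of the 24 stretches of 1 Mb, every one held an MLEWT-FLAG peak, 22 held a kept peak and in none were all peaks kept. The stretches without a kept peak were the 2 at the centromeric end of the assembly. The most kept peaks in a stretch was 6 of 13, in the stretch from 1 to 2 Mb, and the fewest per peak elsewhere was 2 of 15, from 9 to 10 Mb. In 3 stretches of equal length from the tip to the centromeric end, 21 of 65, 20 of 87 and 14 of 64 peaks were kept, or 32.3%, 23.0% and 21.9%, with overlapping intervals. Between neighbouring kept peaks lay a median of 2 lost peaks, with 0 in 12 of 54 gaps and 15 in the fullest. The widest gap of MLEΔCBD-FLAG males ran from chrX:2446273 to chrX:3861311, ending at roX1.

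**Figure D5:**
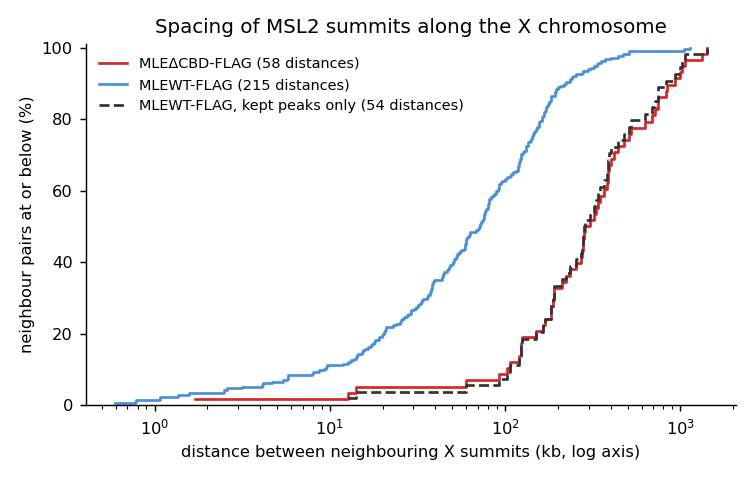
Cumulative percent of neighbour pairs (y axis) by distance between neighbouring X summits in kb (x axis, log scale) for MLEΔCBD-FLAG males, MLEWT-FLAG males and the kept peaks of the MLEWT-FLAG list. The medians are 295 kb for MLEΔCBD-FLAG, 71.4 kb for MLEWT-FLAG and 283 kb for the kept peaks.

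Lost peaks were seldom the flank of a kept one. The median lost summit lay 118 kb from the nearest kept summit, and 6 of 161 lay within 10 kb of one. Only 3 lost peaks came within 1000 bp of an MLEΔCBD-FLAG peak, 1 at Paics, an enzyme gene of purine synthesis, and 2 at dx. Within 50 kb, 42 of 161 lost summits had a kept summit.

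GA repeats stood near both kept and lost sites. A run of at least 4 GA units, GAGAGAGA or its reverse complement, lay within 100 bp of 19 of 55 kept X summits, or 34.5% (interval 23.4 to 47.7%), and of 46 of 161 lost X summits, or 28.6% (interval 22.2 to 36.0%). The same run was found in 1.54% of the 116786 non-overlapping windows of the same length that tile the X. With runs of 3 units the shares were 50.9% of kept and 43.5% of lost summits. The longest GA run had a median of 6 bases in both groups. As a looser measure, at least 16 of 21 consecutive bases matched an alternating GA stretch near 49.1% of kept and 40.4% of lost summits, against 1.85% of every 20th X window. The median distance of the repeat from the summit was 29 bp at kept and 28.5 bp at lost sites. In the rank bands that held both groups, the shares with a run of 4 units went the other way. At ranks 21 to 50 of the MLEWT-FLAG list it lay near 5 of 24 kept and 3 of 7 lost summits. At ranks 51 to 100 it lay near 2 of 11 kept and 12 of 39 lost summits. The intervals of kept and lost summits overlapped in each band. The other kept summits with such a run all lay at ranks 1 to 20. Every X peak was kept there, so that band held no lost summits to compare.

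Run length did not set the kept peaks apart. Among all X summits the longest run, of 29 bases, belonged to the lost peak of CanA-14F at rank 144, and runs of 25 bases stood at the kept peaks of Nup153 and Atg5. Conversely, hep, sno and the intergenic site near CG12237, all kept and among the 6 strongest, had runs of only 4 or 5 bases. Runs of GT, with 4 units in the same window, were found at 6 of 55 kept (10.9%) and 14 of 161 lost (8.70%) summits, against 5.27% of X windows. A match is a description of the letters and not of a bound motif.

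Peaks with no counterpart made up 35 of the 92 MLEΔCBD-FLAG peaks, or 38.0% (interval 28.8 to 48.3%). Of these, 4 were on the X, 23 on autosomes and 8 outside the main chromosome sequences, 7 of these on unplaced sequences. Not all are separate sites in the second peak set. Across the MLEΔCBD-FLAG list, 11 peaks shared a second-set peak with another, and no kept X peak was among them. The autosomal peaks with no counterpart had a median width of 498 bp in the first set and 1135 bp in the second. Peaks with no counterpart were fewer at the top of the list, with 3 of 20 at ranks 1 to 20, 10 of 30 at ranks 21 to 50 and 22 of 42 at ranks 51 to 92.

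On the X, the strongest of them were the pair near the tip, at chrX:54242-54516 (rank 8, fold enrichment 6.75) and chrX:52525-52808 (rank 15, fold enrichment 4.85), 68109 bp and 69819 bp from the nearest annotated start, lncRNA:CR40469. Another at chrX:23217003-23217219 (rank 24) overlapped the exon of a 28S ribosomal RNA pseudogene, 28SrRNA-Psi:CR45859. The fourth, at chrX:22373223-22374075 (rank 81), was intergenic. All 4 overlapped MSL1 and MSL3 peaks of MLEΔCBD-FLAG males. In MLEWT-FLAG males none overlapped an MSL1 peak, and 1, the left one of the tip pair, overlapped an MSL3 peak. The MSL3 peaks of MLEΔCBD-FLAG males at these 4 sites had a median width of 317 bp, with summits a median of 1.5 bp from the MSL2 summits. At kept X peaks these medians were 3983 bp and 199 bp. The only preimmune library came from the MLEWT-FLAG line. Background signal specific to MLEΔCBD-FLAG males was therefore not tested at any peak with no counterpart. Repeat-masked bases made up 22.5 to 41.5% of these 4 peaks, against 21.04% of all X bases, and the part of multiply mapping reads in them was not tested.

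The autosomal ones lay mostly on 3R, with 13 of 23, while 3R holds 29.1% of autosomal bases. These counts take each peak as separate. Joined within 10 kb, the 27 peaks with no counterpart on named chromosomes fell into 17 groups, 7 of them with more than 1 peak. There were 3 each on 2L, 2R and chromosome 4, and 1 on 3L. The 5 strongest were a pair at the end of 2R (chr2R:25285485-25285690 at rank 25 and chr2R:25285905-25286214 at rank 33), within 1.34 kb of the end of the sequence, and 3 on chromosome 4 between 1305836 and 1307947, at ranks 31, 32 and 38 and 40.4 to 42.2 kb from its end. On 3R they clustered at GluClalpha, a glutamate-gated chloride channel gene, with its overlapping lncRNA CR43488 (3 peaks), CG34347 (3 peaks), the lysosomal enzyme receptor gene Lerp (2 peaks) and CG6678 (2 peaks). Single peaks lay at Ugt303B3, a glycosyltransferase gene, at hkb, the gap gene huckebein, and at an intergenic site of 3R. Elsewhere single peaks lay at the calcium channel gene Ca-alpha1D, at CLIP-190, a microtubule-binding protein gene, at Maf1, a repressor of RNA polymerase III, and at intergenic sites of 2L and 3L. Because the lines differ in their copies of chromosome 3, the peaks on 3R cannot be told apart from the effect of TM6.

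The autosomal peaks without counterpart were described by the same measures as the X peaks, with no test between them. Their intervals take close peaks as independent and so can be too narrow. A run of 4 GA units was found at 0 of 23, which with the Wilson interval allows up to 14.3%, beside 1.04% of autosomal windows of the same length. The looser measure, at least 16 of 21 bases, was met near 0 of 23, and near 0 of the 4 X peaks without counterpart. It was met near 27 of 55 kept X summits of the same list. The median match was 12 of 21 bases at these autosomal peaks, 15 at the kept X peaks and 11 in every 20th X window. Coding sequence held 6 summits (26.1%, interval 12.5 to 46.5%), introns 6 and intergenic sequence 8 of 23 (34.8%, interval 18.8 to 55.1%). The shares of autosomal bases in these parts were not computed, so the counts have no background beside them. MSL1 of MLEΔCBD-FLAG males overlapped 9 of 23 and MSL3 of MLEΔCBD-FLAG males 16 of 23, while MSL1 and MSL3 of MLEWT-FLAG males overlapped 0 of 23 each. Their median fold enrichment was 2.40, against 3.12 for the kept X peaks of the same list, and 17 of the 27 peaks without counterpart on named chromosomes stood within 10 kb of another. Of those 27, 8 lay within 100 kb of a chromosome end, against 0 of the kept X peaks. These 8 were the pair at the X tip, the pair at the end of 2R, the 3 on chromosome 4 and 1 on 3L.

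The 4 autosomal peaks of MLEWT-FLAG males were all lost and stood at the bottom of the list, at ranks 205, 217, 220 and 221 of 222. They lay in the coding sequence of capu, which encodes a formin, in an intron of Dpp10, in an intron of nrm and in the coding sequence of Mo25, a scaffold of the Lkb1 kinase. None overlapped an MSL1 or MSL3 peak of either line, and none had a run of 4 GA units.

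Of the genes for the complex itself, roX1 and roX2 carried an MSL2 peak in each line, and msl-1, msl-2, msl-3, mof and mle carried none in either. Of 11 listed partners and regulators, 10 were matched by symbol, and Nup153 alone carried MSL2 peaks, 1 in MLEΔCBD-FLAG males and 2 in MLEWT-FLAG males. mof, the acetyltransferase gene on the X, lay 35256 bp from the nearest MLEΔCBD-FLAG peak and 35074 bp from the nearest MLEWT-FLAG peak. Sxl, the master sex-determination gene, lay 222581 bp from the nearest MLEΔCBD-FLAG peak and 222285 bp from the nearest MLEWT-FLAG peak. The X-linked markers yellow and white and the promoter source Ubi-p63E carried no MSL2 peak in either line.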

How the data were processed

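MSL2, MSL1 and MSL3 ChIP-seq of MLEΔCBD-FLAG and MLEWT-FLAG males was read from 6 peak lists of 20 columns. The authors used cutadapt for trimming of paired reads, Bowtie2 for mapping on dm6 and MACS2 for peaks, followed by a test of reproducibility (IDR). Versions are not given in the sources used here. The labels also name dm3, but positions were read as dm6 (release 6), where the last X peak ends at base 23217219 of 23542271. Fold enrichment is a ratio over background deposited by the authors, and the deposited −log10 p, −log10 q and −log10 IDR are theirs. The number of unmapped columns was 0.

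Peaks were paired by the longest overlap, of at least 1 bp. Gene parts came from Ensembl release 115, without transposable elements, in the order exon, intron, intergenic. Shares carry 95% Wilson intervals and medians 95% order-statistic intervals, which cover counting only. Genes were named by rule: those the study names, the 10 strongest kept and lost X peaks, peaks without counterpart on the X and the 5 strongest on autosomes, autosomal MLEWT-FLAG peaks, and extremes of rank, width and summit distance. Other genes named, such as those with several peaks, were chosen after their values were seen. Members and lists were chosen with earlier results of these data known. The pairing was tested on simulated lists, where 150 of 150 planted shared peaks were found among 400. Python 3.11.15, numpy 2.4.6, pandas 2.3.3 and scipy 1.17.1 were used. Alternatives covered the overlap rule, thresholds, list length, merging, peak set, GA settings and gene models. The coverage tracks and the preimmune library were not analysed here.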

Additional observations from a re-analysis of the deposited data

How the results depend on the processing

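Taking 92 peaks from each list gave a kept share of 57.6% (all chromosomes and X alike), a spacing ratio of 1.74, a median percentile rank of kept X peaks of 70.7 against 87.4 with the whole list, and shares of lost X peaks with an MSL1 or MSL3 peak of MLEΔCBD-FLAG males of 92.3% and 97.4%. The shorter list by construction leaves out the weakest MLEWT-FLAG peaks. Summits within 250 bp gave 34.8% for MSL3. The second peak set gave a median summit distance between lines of 18 bp. Runs of 3 GA units gave 50.9% of kept and 43.5% of lost summits, and peak midpoints put 26.1% of lost peaks in introns, where the cause was not tested. These are 11 of 73 alternative values for 13 results, and the other 62 stayed inside the 95% interval of the value reported, among them an IDR of 0.01 or less, an overlap of 50% of the shorter peak and peaks within 1000 bp merged. A −log10 q of at least 3 removed no peak from either MSL2 list. No paired analysis was possible because each line has 1 MSL2 list without replicate columns. Without counts, depth limits every count of peaks, and 11 MLEΔCBD-FLAG peaks share a second-set peak with another. No kept X peak is among these 11, so the limit falls on the counts of peaks with no counterpart.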
